A study of Homo sapiens with 6 samples.

Results

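The R-loops described here lay at the nuclear genes for mitochondrial ribosomal proteins. Members were the protein-coding genes of GENCODE release 44, mapped to the human build GRCh37 (hg19), whose symbol starts with MRPL or MRPS followed by a digit, and there were 78 of them among 20175 protein-coding genes. An R-loop peak was assigned to a member when it overlapped the gene record or the 2000 bp on either side of it. By this rule 72 of the 10231 peaks of untreated cells and 77 of the 11085 peaks of treated cells lay at members.

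The peaks came from spKAS-seq of HEK293T, a cell line from human embryonic kidney, with the WT genotype in every group. In this assay N3-kethoxal, a probe that reacts with guanine in single-stranded DNA, is added to live cells, labelled DNA is enriched on streptavidin, and the strand of the label is kept. The groups were 2 untreated samples, 2 samples given 10 μM N2-heptynyl-dG for 3 h, and 2 input samples from untreated cells, and all were labelled with 5 mM N3-kethoxal for 10 min. N2-heptynyl-dG is a deoxyguanosine that carries an alkyne chain on its N2 atom and that cells can build into their DNA. The processed files used here are 1 list of peaks per condition, with chromosome, start, end and strand and with no height, score or p-value. The reads were not analysed here, and these lists alone give no replicate spread, no read depth and no test between the conditions. The shares given with an interval below carry 95% Wilson intervals that cover counting error only.

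The mitochondrial ribosome translates the few messenger RNAs of the mitochondrial genome, which encode core subunits of the respiratory chain and of ATP synthase. Its ribosomal RNAs are mitochondrial, whereas all of its proteins are made from nuclear genes, translated in the cytosol and imported. An R-loop forms when a nascent transcript pairs with its template strand and leaves the other DNA strand single, which is common where transcription starts and where it ends. Proteins named MRPL belong to the large subunit and most of those named MRPS to the small subunit. The exceptions here were MRPS18A and MRPS30, which sit in the large subunit, and MRPS36, which is now regarded as a component of the 2-oxoglutarate dehydrogenase complex. By these assignments 51 members belonged to the large subunit and 26 to the small subunit.

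The DNA around the canonical transcription start is shown for 5 members whose start carried a peak in 1 list only, and for MRPL53, which had the widest peak at any member. Each run holds 150 bases before the start and 30 bases from the start, read 5′ to 3′ on the strand of the gene from GRCh37. Capitals mark matches to the ETS motif CCGGAAG (or its reverse complement CTTCCGG) and to the YY1 motif AAGATGGCG. MRPL11 (chr11:66206290-66206469, minus strand), MRPL16 (chr11:59578222-59578401, minus strand) and MRPS10 (chr6:42185570-42185749, minus strand) had a sense peak over the start in treated cells only. MRPS6 (chr21:35445728-35445907, plus strand) and MRPS9 (chr2:105654377-105654556, plus strand) had it in untreated cells only. At MRPL53 (chr2:74699778-74699957, minus strand) both lists had it.
MRPL11: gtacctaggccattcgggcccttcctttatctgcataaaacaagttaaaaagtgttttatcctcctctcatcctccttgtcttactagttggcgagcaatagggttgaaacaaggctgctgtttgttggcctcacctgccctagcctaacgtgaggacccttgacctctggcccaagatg
MRPL16: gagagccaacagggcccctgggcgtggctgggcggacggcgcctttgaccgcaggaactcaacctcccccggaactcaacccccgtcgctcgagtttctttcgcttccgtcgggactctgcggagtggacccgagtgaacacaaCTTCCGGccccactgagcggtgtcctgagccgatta
MRPS10: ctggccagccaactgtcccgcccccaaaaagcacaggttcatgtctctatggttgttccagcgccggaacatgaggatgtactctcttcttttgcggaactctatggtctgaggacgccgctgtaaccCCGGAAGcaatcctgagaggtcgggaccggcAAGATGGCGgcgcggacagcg
MRPS6: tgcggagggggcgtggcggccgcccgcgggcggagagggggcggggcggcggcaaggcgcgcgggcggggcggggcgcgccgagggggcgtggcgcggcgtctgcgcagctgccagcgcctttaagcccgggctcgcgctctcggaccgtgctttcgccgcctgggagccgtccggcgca
MRPS9: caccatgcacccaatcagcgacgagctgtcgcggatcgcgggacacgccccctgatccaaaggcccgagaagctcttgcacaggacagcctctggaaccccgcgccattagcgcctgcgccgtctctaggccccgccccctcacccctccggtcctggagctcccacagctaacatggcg
MRPL53: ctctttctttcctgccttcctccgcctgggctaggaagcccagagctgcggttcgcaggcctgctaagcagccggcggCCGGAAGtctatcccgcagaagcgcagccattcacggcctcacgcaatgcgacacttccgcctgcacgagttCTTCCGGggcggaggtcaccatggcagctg
The printed runs lay wholly inside the peak at all of these genes except MRPS6, where 165 of the 180 bases did. Their GC content ranged from 48.9% at MRPL11 to 82.8% at MRPS6, and it was 48.9 to 65.0% at the 3 genes of treated cells and 67.2 and 82.8% at the 2 genes of untreated cells. These 5 are too few to read an order from.

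Most mitochondrial ribosomal protein genes had an R-loop peak in each condition. In untreated cells 52 of 78 members (66.7%, interval 55.6 to 76.1%) had a peak, against 41.7% of all protein-coding genes. In treated cells 56 members (71.8%, 61.0 to 80.6%) had one, against 43.8%. Both lists held a peak at 47 members (60.3%, 49.2 to 70.4%), against 36.3% of all protein-coding genes. The share of members thus lay above the share of all coding genes in either list, although the gene records of the members were shorter, with a median of 11940 bp against 27193 bp. The gap was small among genes with another coding start within 1000 bp upstream on the opposite strand. There 69.2% of members in untreated and 73.1% in treated cells had a peak, against 64.1% and 67.3% of coding genes. Without such a neighbour the shares were 65.4% and 71.2%, against 39.4% and 41.4%. Transcript levels were not analysed here, so how far the difference goes with expression was not tested.

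**Figure D1:**
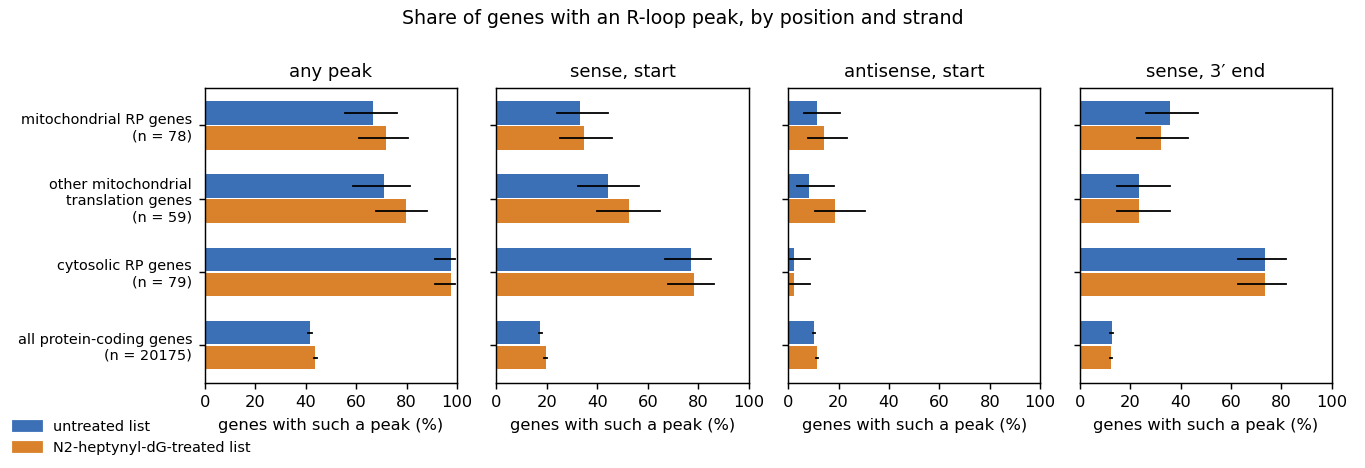
Share of genes with an R-loop peak, in percent, for the 78 mitochondrial ribosomal protein (RP) genes, 59 other genes of mitochondrial translation, 79 cytosolic RP genes and all 20175 protein-coding genes. Panels show any peak, sense and antisense peaks at the start, and sense peaks at or past the 3′ end; bars are the 2 lists and black lines are 95% Wilson intervals. Mitochondrial RP genes lay between all coding genes and cytosolic RP genes for sense peaks at either end (33.3% at the start and 35.9% at the 3′ end in untreated cells), and near all coding genes for antisense peaks.

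Peaks at members were mostly on the strand of the gene. A peak is called sense here when its listed strand is that of the gene. Whether the lists give the strand of the label or of the read is not stated in the sources used here, and with the opposite convention sense and antisense would change places and the G-quadruplex counts would refer to the other strand. Sense peaks made up 63 of 73 gene and peak pairs (86.3%) in the untreated list and 65 of 78 (83.3%) in the treated list. Over all coding genes the corresponding shares were 69.4% and 68.7%. The pairs number 1 more than the peaks in each list because 1 peak lay at both MRPS11 and MRPL46, which are transcribed away from each other from starts 320 bp apart.

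Sense peaks at the start were narrow and lay close to the start itself. A peak was placed at the start when its midpoint was within 1000 bp of the canonical start. In untreated cells 26 members (33.3%, 23.9 to 44.4%) had a sense peak there, against 17.4% of all coding genes. In treated cells 27 members (34.6%, 25.0 to 45.7%) had one, against 19.5%. The median midpoint lay 68 bp downstream of the start in the untreated list and 86 bp downstream in the treated list, and 22 of 26 and 24 of 27 of these peaks covered the start. Over all coding genes the median midpoint was 145 and 144 bp downstream. In either list 500 bp was the median width, which 17 of 26 sense start peaks (65.4%) had in untreated cells and 19 of 27 (70.4%) had after treatment. Over all coding genes the median was also 500 bp in both lists, and 53.4% and 52.0% of sense start peaks had that width.

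The 20 members with a sense start peak in both lists (25.6%, against 14.2% of all coding genes) encode proteins of both subunits. Of the large subunit they included MRPL2 and MRPL24, proteins with bacterial homologs, MRPL45, which lies by the exit of the nascent chain, and MRPL44, a mitochondria-specific protein. The others of the large subunit were MRPL10, MRPL13, MRPL17, MRPL30, MRPL34, MRPL35, MRPL42, MRPL50, MRPL55, MRPL57 and MRPS30. Of the small subunit they were MRPS11, MRPS21, MRPS25, MRPS33 and MRPS35. At MRPL44 the peak spanned chr2:224821992-224822491 in both lists, from the upstream flank through exon 1. At MRPS25 it spanned chr3:15106501-15107000 in both lists. At MRPL24 a peak of 1000 bp, chr1:156710463-156711462, was likewise the same in both, with its midpoint at -82 bp from the canonical start, a negative value being upstream.

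**Figure D2:**
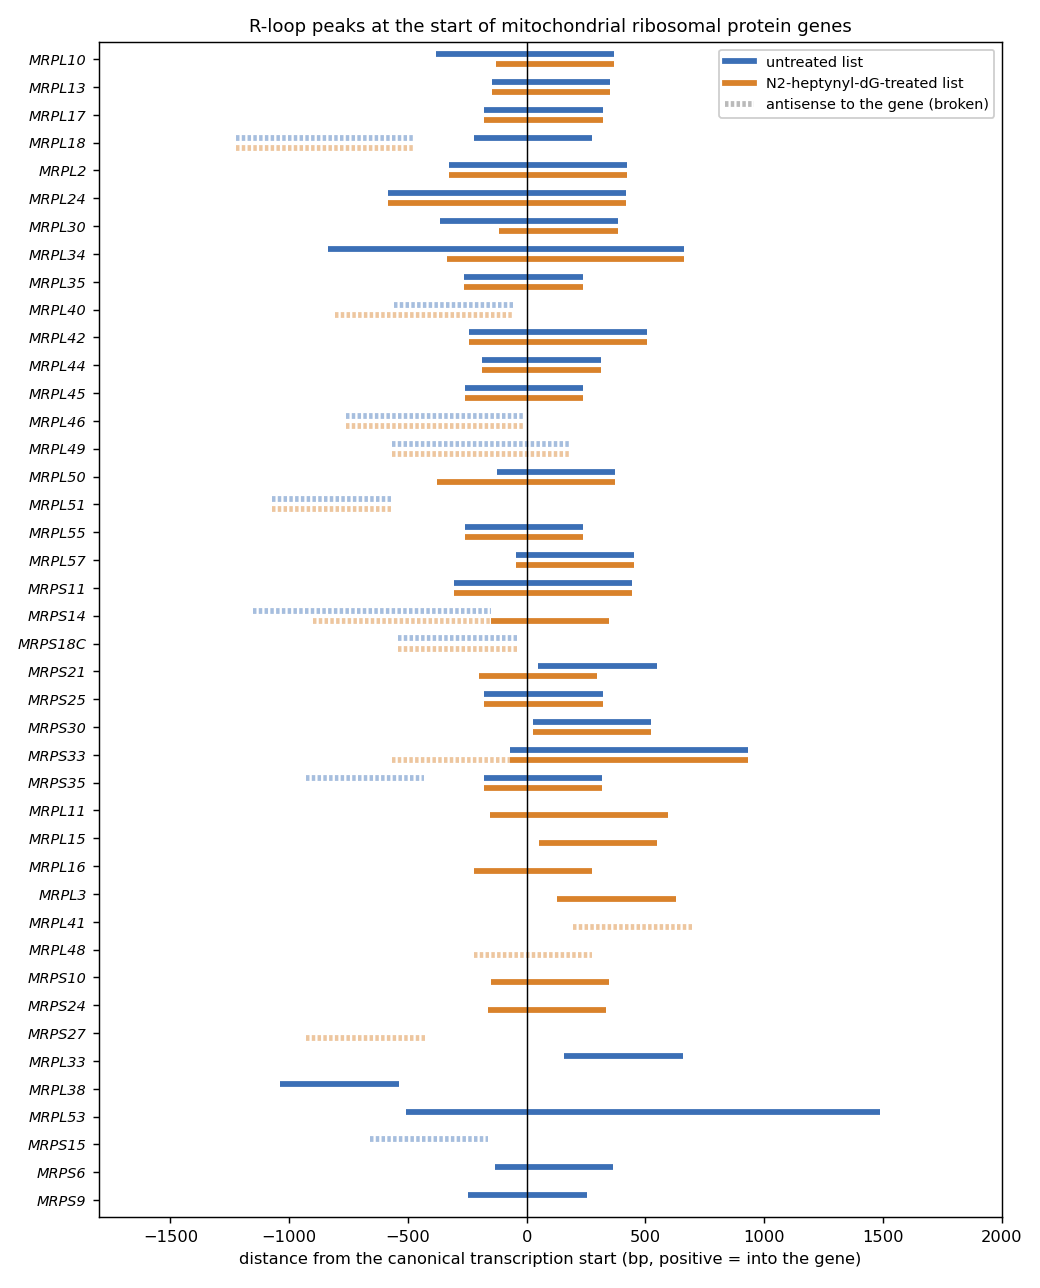
R-loop peaks with a midpoint within 1000 bp of the canonical start, 1 row per member, as bars from the peak's first to its last base on an axis of distance from the start in bp. Solid bars are sense and broken bars antisense peaks, with the untreated list above the treated list in each row. Sense bars mostly straddle the start with the same borders in both lists, while antisense bars mostly lie upstream of it. The MRPL53 peak of the treated list reached farther past the gene's end and was placed at the 3′ end.

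Antisense peaks at the start were found at shares near those of coding genes in general. They were found at 9 members (11.5%, 6.19 to 20.5%) in untreated and 11 members (14.1%, 8.06 to 23.5%) in treated cells, against 10.4% and 11.4% of all coding genes. Another coding gene started within 1000 bp upstream on the opposite strand at 26 of 78 members, more often than over all coding genes. With such a neighbour, antisense start peaks lay at 23.1% and 26.9% of members, against 25.6% and 27.8% of coding genes. Without one they lay at 5.77% and 7.69% of members, against 8.83% and 9.69%. The median midpoint at members was -411 bp from the start in untreated and -388 bp in treated cells. Both lists held such a peak at 7 members (8.97%), against 7.88% of all coding genes, a share near the background. At 6 of these the peak lay on the strand of a neighbouring gene that runs the other way. The neighbours were TCP1, a chaperonin subunit, at MRPL18, HIRA, a histone chaperone, at MRPL40, MRPS11 at MRPL46, FAU, which encodes a cytosolic ribosomal protein, at MRPL49, NCAPD2, a condensin subunit, at MRPL51, and HELQ, a DNA helicase, at MRPS18C. At MRPS14 no coding gene was annotated on the strand of the antisense peak (chr1:174992713-174993712 in untreated and chr1:174992713-174993462 in treated cells). In treated cells a sense peak over the MRPS14 start, chr1:174992213-174992712, met this antisense peak at the adjoining base, and the untreated list had no sense peak there. The other antisense peaks were at MRPS15 and MRPS35 in untreated cells only and at MRPL41, MRPL48, MRPS27 and MRPS33 in treated cells only.

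Farther upstream, at MRPS18B, both lists held the same antisense peak of 2750 bp (chr6:30582501-30585250, minus strand). This peak covered the start of PPP1R10, a regulatory subunit of protein phosphatase 1 whose start lies 597 bp from that of MRPS18B. It was the widest antisense peak at any member.

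At the 3′ end the share of members was more than 2 times that of coding genes in general. Sense peaks within 1000 bp of the end of the gene record, or beyond it, lay at 28 members (35.9%, 26.1 to 47.0%) in untreated cells, against 12.7% of all coding genes. In treated cells they lay at 25 members (32.1%, 22.7 to 43.0%), against 12.6%. Both lists had one at 24 members (30.8%), against 10.3% of all coding genes. The midpoint lay a median of 1000 bp past the canonical transcript end in untreated and 1040 bp past it in treated cells, so that most of these peaks were beyond the annotated gene. Only 6 of 28 untreated and 7 of 27 treated peaks overlapped the member's own gene record.

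These 3′ peaks were wider than those at the start. Their median width was 1125 bp without and 1000 bp with treatment, and 3 of 28 (10.7%) and 1 of 27 (3.70%) were 500 bp wide. Over all coding genes sense 3′ peaks were likewise wider than sense start peaks. Their median was 1000 bp in both lists, and 16.6% and 17.1% were 500 bp wide. Apart from the peak of MRPL53, described below, the widest 3′ peaks at members were at MRPL12, MRPS18A, MRPS21 and MRPS26. MRPL12, which encodes the stalk protein that contacts translation factors, had a peak of 3000 bp in untreated cells (chr17:79675681-79678680, plus strand) and of 3250 bp in treated cells (chr17:79675681-79678930). MRPS18A had 3000 bp (chr6:43635001-43638000, minus strand) and 2500 bp (chr6:43635001-43637500). MRPS26, a mitochondria-specific protein of the small subunit, had 2750 bp (chr20:3030001-3032750, plus strand) and 2000 bp (chr20:3030001-3032000). At MRPS21, which encodes a protein with a bacterial homolog, both lists gave chr1:150281080-150283829, a peak of 2750 bp on the plus strand. All of these began within 1500 bp of the end of the gene record or overlapped it, as the map of 3′ peaks shows.

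**Figure D3:**
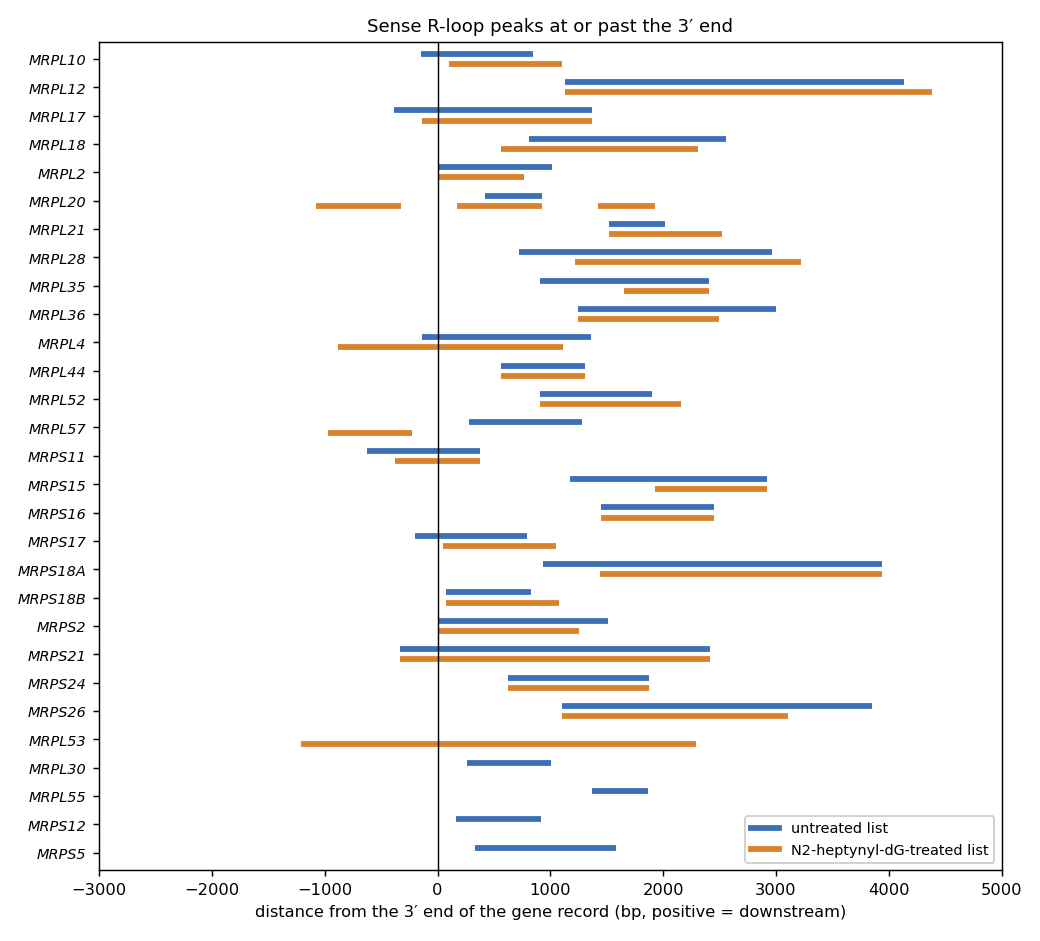
Sense R-loop peaks at or past the 3′ end of the gene record, 1 row per member, as bars on an axis of distance from the record's end in bp (positive is downstream). The untreated list is drawn above the treated list in each row, and the 5 rows at the bottom have such a peak in 1 list only. Most bars lie to the right of 0, and their borders differ between the lists more often than those at the start.

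Many 3′ peaks shared their place with another gene. The windows of 56 of the 78 members overlapped another coding gene record. Of the sense 3′ peaks, 9 of 28 without and 8 of 27 with treatment overlapped another coding gene on the same strand, and 5 in each list held the start of another coding gene. These starts were of PNLDC1 behind MRPL18, CUL7 behind MRPL2, MMP14 behind MRPL52, DNAJC9 behind MRPS16 and ATAT1 behind MRPS18B. The lists do not tell a peak formed by the end of 1 gene from a peak formed by the start of the next. Peaks that touched no other coding gene numbered 15 of 28 and 16 of 27, and included those of MRPS2, MRPS24, MRPS26, MRPL17, MRPL28 and MRPL36. These overlaps were not counted over all coding genes, so whether members differ from them in this respect cannot be said.

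Members with a 3′ peak in either list had shorter records than the others, with a median of 5385 bp for 29 members against 15276 bp for 49. The proteins with a bacterial homolog had 3′ peaks at 23 of 46 genes (interval 36.1 to 63.9%) in untreated and 20 of 46 (43.5%, 30.2 to 57.8%) in treated cells. For the mitochondria-specific proteins the counts were 4 of 29 (13.8%, 5.50 to 30.6%) and 5 of 29 (17.2%, 7.60 to 34.5%), near the 12.7% and 12.6% of all coding genes. The difference between the 2 classes was not tested. At the start the order was not the same in both lists: sense peaks lay at 14 of 46 and 11 of 29 genes in untreated cells and at 17 of 46 and 9 of 29 in treated cells.

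Sense peaks at both ends of the same gene were found at 11 members (14.1%) in untreated and 9 (11.5%) in treated cells, against 4.06% and 4.39% of all coding genes. In both lists these included MRPL2, MRPL10, MRPL17, MRPL35, MRPL44, MRPL57, MRPS11 and MRPS21. MRPL17 illustrates the arrangement. A peak of 500 bp covered its start (chr11:6704251-6704750 in both lists), and a second covered the end and the region behind it (chr11:6700251-6702000, 1750 bp, in untreated and chr11:6700251-6701750, 1500 bp, in treated cells).

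Peaks inside the gene record, away from both ends, numbered 9 without and 11 with treatment, and all were sense. They made up 12.3% and 14.1% of the pairs at members, against 21.5% and 21.8% over all coding genes, where 69.7% and 67.7% of them were sense. The distance from the canonical start was greatest at MRPL33, where both lists had chr2:28113495-28114244, 119283 bp downstream. That position lies in a long variant of the MRPL33 record and covers the start of BABAM2, a subunit of a deubiquitinating complex. MRPL33 also had a peak 9283 bp from its start in untreated cells (chr2:28002995-28004744) and 9158 bp from it in treated cells (chr2:28003245-28004244), just past the canonical transcript end. At MRPL13 an untreated peak of 1000 bp lay 54103 bp from the start and past the canonical end, and the treated list had no match. At MRPL35 the farthest peak was the one behind the gene, 15987 bp from the start in untreated cells (chr2:86441818-86443317) and 16362 bp in treated cells (chr2:86442568-86443317). MRPL23 had 2 inside peaks in each list. The first, in intron 1, was 2500 bp wide in untreated (chr11:1969751-1972250) and 1750 bp in treated cells (chr11:1970001-1971750), and the second was 750 bp (chr11:1979751-1980500) and 2250 bp wide (chr11:1979501-1981750). The 2 peaks of MRPL23 thus differed between the lists in opposite directions.

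The lists differed at 14 members, which had a peak in 1 of them only. The 9 found in treated cells only (11.5%, 6.19 to 20.5%; 7.53% of all coding genes) outnumbered the 5 found in untreated cells only (6.41%, 2.77 to 14.1%; 5.42%). Both intervals include the share of all coding genes. The excess of treated over untreated depended on how peaks were assigned. It was 9 against 8 with flanks of 1000 bp, and 10 against 8 when the peak's midpoint had to lie in the window. With peaks whose nearest coding start was the member's it was 8 against 8. Without flanks it was larger, at 11 against 3. It was 9 against 5 with peaks within 1000 bp of the canonical start, and 7 against 5 with peaks on the strand of the gene. The treated list is also the longer of the 2, and neither presence nor absence of a peak could be set against replicates.

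Of the 9 members with a peak in treated cells only, 5 had a sense peak at the start. Besides MRPL11 (chr11:66205726-66206475, 750 bp), MRPL16 (chr11:59577976-59578475, 500 bp) and MRPS10 (chr6:42185251-42185750, 500 bp), these were MRPL3 (chr3:131221187-131221686, 500 bp) and MRPL15 on chromosome 8 (500 bp). All 5 encode proteins with bacterial homologs, as do 46 of the 78 members, and MRPL11 lies in the region of the large subunit where translation factors bind. Counting peaks at any position, 5 of these 46 members (10.9%) and 4 of 29 mitochondria-specific ones (13.8%) had a peak in treated cells only. The MRPL3 and MRPL15 peaks began inside the gene, with midpoints 379 and 300 bp from the start. MRPL41 (chr9:140446527-140447026) and MRPL48 (chr11:73498697-73499196), both mitochondria-specific proteins of the large subunit, had a 500-bp antisense peak at the start instead. MRPL37 had 2 sense peaks of 500 bp, chr1:54687174-54687673 and chr1:54688174-54688673, both in a longer variant of the gene record past the canonical transcript end, with midpoints 21583 and 22583 bp from the start. MRPL43 had an antisense peak of 750 bp at the end of its gene record (chr10:102728399-102729148), 18481 bp from the start, which was the only antisense 3′ peak at any member. Its midpoint lay 17253 bp past the canonical transcript end of MRPL43. The nearest coding start was that of SEMA4G, 488 bp from the midpoint.

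Of the 5 members with a peak in untreated cells only, 4 encode small subunit proteins. MRPS9 (chr2:105654281-105654780, 500 bp) and MRPS6 (chr21:35445743-35446242, 500 bp) had a sense peak over the start. MRPS6 had a second of 1000 bp in intron 1 (chr21:35448493-35449492). Both MRPS6 peaks also overlapped the record of SLC5A3, a myo-inositol transporter on the same strand, whose start lies in the first of them. MRPS12, a protein of the decoding centre, had a peak of 750 bp behind the gene (chr19:39423973-39424722), as did MRPS5 with 1250 bp (chr2:95749531-95750780), 37398 bp from its start. MRPL38, the one member of the large subunit, had a 500-bp sense peak (chr17:73901503-73902002) with its midpoint at -787 bp from the canonical start.

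Members with a peak in 1 list only were also counted by subunit. Over all coding genes 7.53% had a peak in treated cells only and 5.42% in untreated cells only. In the large subunit 8 of 51 members (15.7%, 8.17 to 28.0%) had a peak in treated cells only and 1 (1.96%, 0.347 to 10.3%) in untreated cells only. In the small subunit the counts were 1 of 26 (3.85%, 0.682 to 18.9%) and 4 of 26 (15.4%, 6.15 to 33.5%). The intervals of the subunits overlap for each list, and the difference was not tested. The split by subunit was not recomputed with other rules for assigning peaks. Members with a peak in both lists made up 60.8% of the large and 61.5% of the small subunit, against 36.3% of all coding genes.

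Members with peaks in both lists could also differ at 1 of their ends. A sense start peak was missing from the treated list at MRPL18 and MRPL33, which kept their other peaks, and from the untreated list at MRPS14 and MRPS24. A sense 3′ peak was in the untreated list only at MRPL30 (chr2:99816281-99817030, 750 bp, 19008 bp from the start) and at MRPL55 (500 bp). At MRPL57 each list had a 3′ peak, but they did not meet and lay 500 bp apart.

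Overlap by at least 1 bp was used to match peaks between the lists. Of the untreated peaks at members 58 of 72 (80.6%, 70.0 to 88.0%) overlapped a treated peak, against 74.8% of the whole untreated list. Of the treated peaks 59 of 77 (76.6%, 66.0 to 84.7%) overlapped an untreated peak, against 69.5% of the whole treated list. Sharing at the start was 21 of 26 (80.8%) and 20 of 27 (74.1%) sense peaks, against 81.3% and 73.1% over all coding genes. At the 3′ end it was 23 of 28 (82.1%) and 24 of 27 (88.9%), against 80.0% and 80.5%. Among unmatched peaks, those at MRPL20 and MRPL57 lay 500 to 750 bp from the nearest peak of the other list on the same strand, and the rest lay 3250 bp or more from it.

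Where both lists held a peak, its borders were identical more often at the start than at the 3′ end. Paired 1 to 1 on the same strand, 20 sense start peaks included 15 with identical borders, and 23 sense 3′ peaks included 4 (17.4%). Over all coding genes the same order held, with 56.2% of start and 27.0% of 3′ pairs identical. Of the 3′ pairs at members 10 were narrower in treated cells, 6 wider and 7 equal, and their summed width was 35000 bp without and 32500 bp with treatment. Over all coding genes 34.3% of 3′ pairs were narrower and 30.4% wider in treated cells. The narrowing was by 750 bp at MRPL35, MRPS15 and MRPS26 and by 500 bp at MRPL36 and MRPS18A, and the widening was by 500 bp at MRPL4 and MRPL21.

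MRPL53 had the largest difference in width among the start pairs. This mitochondria-specific protein of the large subunit is encoded by a gene of 706 bp, and its peak ran over the whole gene and out of it. It spanned chr2:74698318-74700317 (2000 bp) in untreated and chr2:74696818-74700317 (3500 bp) in treated cells, with the same upstream border and a downstream border 1500 bp farther on. CCDC142 overlaps MRPL53 on the same strand, and the added stretch lay past the annotated ends of both genes. Without a replicate list it cannot be said whether this exceeds the spread between replicates.

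**Figure D4:**
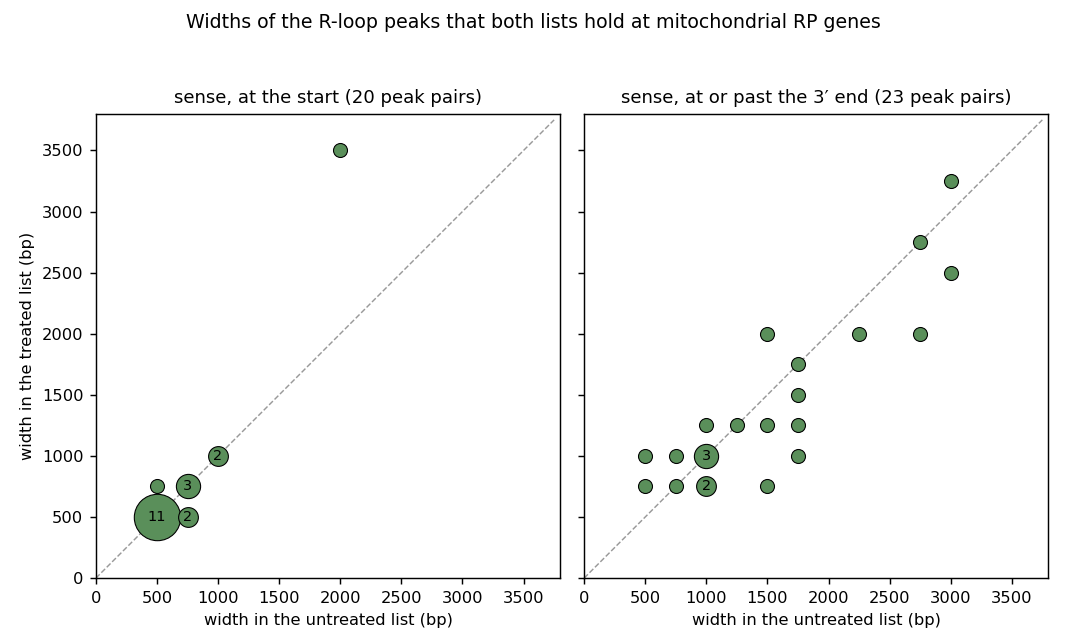
Widths in bp of the sense peaks that both lists hold at members, untreated on the horizontal and treated on the vertical axis, for 20 start peaks and 23 3′ peaks. Point area and the number inside give how many pairs share a position, unnumbered points are 1 pair, and the dashed line marks equal width. Start peaks gather at 500 bp with MRPL53 apart (2000 and 3500 bp), and 3′ peaks spread from 500 to 3250 bp on both sides of the line.

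The starts of members had features in common that the selection did not use. Another coding gene started within 1000 bp upstream on the opposite strand at 26 of 78 members (33.3%), against 9.36% of 20157 coding genes with a full promoter sequence. Such partners included SARS2, the mitochondrial seryl-tRNA synthetase, 181 bp from MRPS12, and TWNK, the mitochondrial DNA helicase, 46 bp from MRPL43. In the 250 bases before and 50 after the start, on either strand, the ETS motif was found at 41.0% of members and 14.0% of coding genes. The YY1 motif was found at 16.7% and 2.81%, the NRF1 core GCATGCGC at 8.97% and 4.26%, and the motif TCTCGCGA at 2.56% and 1.72%. The ETS motif ends in the letters AAG that the YY1 motif begins with, so matches to the pair can overlap, and a match is a description of the sequence only.

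Motif shares were also compared between members with and without a start peak, with no test. The ETS motif was present at 11 of 33 members with a sense start peak in either list (33.3%) and at 21 of 45 without (46.7%), and it was present at 4 of the 20 members with such a peak in both lists. The YY1 motif was present at 18.2% with and 15.6% without a peak in either list, the NRF1 core at 6.06% and 11.1%, and TCTCGCGA at 2 of 33 and 0 of 45. Over all coding genes the ETS motif was present at 21.0% with and 11.9% without such a peak. GC skew, the excess of G over C as a share of both, was positive on the gene's strand in the 500 bases after the start at 64 of 78 members (82.1%), against 66.4% of coding genes. Among members it was positive at 26 of 33 with a sense start peak and at 38 of 45 without. The GC content in the 500 bases on either side of the start had a median of 57.2% at members and 61.2% at all coding genes.

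Within the peaks the base composition was close to that of the whole lists. The median GC content of peaks at members was 55.8% without and 56.8% with treatment, against 56.2% and 57.6%. A G-quadruplex motif, 4 runs of at least 3 G with 1 to 7 bases between them on the peak strand, was in 16 of 72 (22.2%) and 15 of 77 peaks (19.5%) at members, against 18.2% and 19.3% of the whole lists.

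Other genes of mitochondrial translation had peaks at similar shares. Of 59 such genes, 42 (71.2%, 58.6 to 81.2%) had a peak in untreated and 47 (79.7%, 67.7 to 88.0%) in treated cells. Sense start peaks lay at 44.1% and 52.5% of them, and sense 3′ peaks at 23.7% in both lists. All 5 mitochondrial ribosomal proteins without an MRP symbol, AURKAIP1, CHCHD1, DAP3, GADD45GIP1 and PTCD3, had a peak in both lists, although only DAP3 and PTCD3 had it at the start. Of 12 translation factors 8 had a peak in untreated and 9 in treated cells, with MRRF, which recycles ribosomes, and MTRF1L, a release factor, in treated cells only and MTRFR in untreated cells only. TUFM, the elongation factor that brings aminoacyl-tRNA, and MTRF1 had none. Of 23 assembly factors 17 and 19 had a peak, with MALSU1, MTG2 and TRUB2 in treated cells only and RBFA in untreated cells only. Of 19 aminoacyl-tRNA synthetases 12 and 14 had a peak, with EARS2, FARS2 and NARS2 in treated cells only and KARS1 in untreated cells only.

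The genes for proteins of the cytosolic ribosome carried peaks far more often. Of 79 such genes 77 (97.5%, 91.2 to 99.3%) had a peak in each list, and none had a peak in 1 list only. Sense start peaks lay at 77.2% of them in untreated and 78.5% in treated cells, and sense 3′ peaks at 73.4% in both. Their start peaks had median widths of 750 and 1000 bp and their 3′ peaks of 2000 bp in both lists, so that both kinds were wider than at the mitochondrial ribosomal protein genes. None of these intervals for the share of genes with a peak overlaps that of the mitochondrial ribosomal protein genes.

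No peak lay at 17 members in either list (21.8%, 14.1 to 32.2%), against 50.8% of all coding genes. Of the large subunit these were MRPL1, MRPL9, MRPL14, MRPL19, MRPL22, MRPL27, MRPL32, MRPL39, MRPL47, MRPL54 and MRPL58, the last of which is a peptidyl-tRNA hydrolase that rescues stalled ribosomes. Of the small subunit they were MRPS7, MRPS22, MRPS28, MRPS31 and MRPS34, and MRPS36 made up the rest. Their records had a median length of 16365 bp, and 7 of 17 (41.2%) held the ETS motif, a share near that of all members. A missing entry says only that no peak was listed, since the lists give no depth.

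Without the 2000-bp flanks 33 members (42.3%) had a peak in untreated cells and 41 (52.6%) in treated cells, against 31.7% and 34.1% of all coding genes, so the gap to coding genes in general was smaller than with the flanks. Few peaks lay near the limit of the flanks. The assigned peak nearest to its limit was the treated peak of MRPS15, 1922 bp behind the gene record, and it was the only treated peak of that gene. The nearest peaks just outside were a treated sense peak 2272 bp behind MRPL45, which had a start peak in any case, and a treated antisense peak 2611 bp upstream of MRPL22, which had none.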

How the data were processed

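Per the labels and the methods of the study, the authors checked reads with FastQC, trimmed adapters with Trim Galore, used Bowtie2 at default settings for alignment to hg19, took out duplicates with Picard, and followed an earlier spKAS-seq procedure to define R-loops from 2 replicates. They used bedtools for coverage and for intersecting lists, and deepTools for profile plots. Versions are not given in the sources used here. The deposited lists hold 4 columns (chromosome, start, end, strand), 1 list per condition, and no read counts, so depth is unknown. Each list is filed with replicate 1 and was taken as that of its condition.

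Starts were converted to count from 1. Peaks were matched to gene records of GENCODE release 44 lifted to GRCh37 by overlap of at least 1 bp in Python 3.11.15, and the assignments were checked with bedtools 2.31.1. Start and end positions were those of the canonical transcript, or of the gene record for 281 coding genes without one (0 members). A peak was placed at the start (midpoint within 1000 bp), else at the 3′ end (within 1000 bp of the record's end), inside, upstream or downstream. Sequences were read from GRCh37 with pysam 0.24.0. The scripts recovered the gene and the position of 400 of 400 peaks planted near the start or the 3′ end of known genes. This check did not exercise the strand call, and no peaks were planted at the other positions.

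No test was run between conditions. The members and gene lists were chosen with earlier results of these data known. All members with a peak could be named. Positions are given for those with a peak in 1 list only, the 6 with the widest shared peaks and the 8 with peaks farthest from the start, and further examples were chosen after their values were seen.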

Additional observations from a re-analysis of the deposited data

How the results depend on the processing

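Of 62 recomputed values for 11 results, 44 stayed within their interval or within 1.5 times the count, 18 moved and 0 were labelled as reversed. Limited to the gene record without flanks, members with a peak fell to 33 in untreated cells (42.3%, all coding genes 31.7%), to 30 in both lists (38.5%, 26.2%) and to 3 in untreated cells only (3.85%, 5.43%). The share in untreated cells only thus lay below that of all coding genes, whereas with the flanks it lay above (6.41%, 5.42%). Without the flanks 11 members had a peak in treated cells only (14.1%, 7.89%). Limited to peaks within 1000 bp of the canonical start, members with a peak fell to 34 in untreated cells (43.6%, 26.3%) and to 29 in both lists (37.2%, 21.9%). The count in untreated cells only was 8 with flanks of 1000 bp, with the peak's midpoint required in the window and with peaks whose nearest coding start was the member's, where that in treated cells only was 9, 10 and 8. With a reciprocal overlap of 90%, 36.1% of untreated and 33.8% of treated peaks were shared. The share of peaks at the start was 34.2% and 33.3% when it ran from 1000 bp upstream to 100 bp downstream, and 27.1% and 26.5% among peaks of the median width or wider. The share of sense peaks was 74.3% and 71.1% within 1000 bp of the start, and 92.7% and 92.9% with peaks whose nearest coding start was the member's. No paired analysis was possible because the deposited lists hold no values per replicate. No replicate could be left out for the same reason.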
